A study of Mus musculus with 7 samples.

Results

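Heart muscle genes were followed across 7 mouse lung libraries through 10 genes picked by symbol for the contractile and secretory program of heart muscle: Myl7, Myl4, Nppa, Actc1, Tnnt2, Tnni3, Myh6, Myh7, Mb and Ryr2. All 10 were found among the 22447 genes with a unique symbol. The libraries were total RNA of lung tumors from EZH2-overexpressing mice (OE tumors, n = 3), lung labelled normal from EZH2-overexpressing mice (OE normal lung, n = 2) and lung of wild-type mice (WT lung, n = 2). EZH2 is the enzyme through which the Polycomb repressor PRC2 methylates histones. The sources used here do not name the promoter of the transgene, the strain or the age of the mice. The labels give lung tissue as the source of every library, yet their growth text describes minced tumor nodules kept in culture dishes, so whether the tumor RNA came from fresh or cultured nodules is not stated. Nothing in the labels says that libraries of a group came from separate animals, and the p-values therefore describe the spread among these libraries, which may be technical.

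In mice the walls of the larger pulmonary veins carry a sleeve of striated muscle that continues from the left atrium into the lung, so RNA of whole mouse lung holds transcripts of heart muscle. Atrial and ventricular muscle share most of their thin filament but differ in myosin light chains, with Myl7 and Myl4 in the atrium and Myl2 and Myl3 in the ventricle. Nppa encodes atrial natriuretic peptide, a hormone stored in atrial myocytes and induced by stretch.

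Ezh2 checked the labels, at 8.48, 23.5 and 22.6 FPKM, fragments scaled to transcript length and library size, in OE tumors 1 to 3, at 10.2 and 11.5 FPKM in OE normal lungs 1 and 2 and at 3.72 and 2.58 in WT lungs 1 and 2. Read totals are unknown; relative to OE tumor 1, the steps between low values put depth at 1.20 to 1.87 in the other 6, and values under 1 FPKM stand for few reads. A value of exactly 0 in these files can be a failed estimate, so genes at 0 are described as listed at 0 and get no ratio.

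The start-site regions of Myl7, Nppa and Actc1 are shown because Myl7 had the largest difference from OE normal lung, Nppa the largest spread among normal lungs, and Actc1 the largest difference from WT lung. RefSeq promoter windows of 300 bases on GRCm38.p6 matched all 10 genes, while the authors' build was mm9, so the coordinates belong to the RefSeq table alone. Each line gives the 130 bases before the annotated start, 5′ to 3′ on the gene's strand, with motif matches in capitals. The motifs searched were TATAAA on the gene's strand, GATAA (the core bound by GATA factors) on both strands, where TTATC is its reverse, and the CArG box bound by serum response factor, and no matches overlapped in these lines.
Myl7, minus strand, chr11:5898783-5898912: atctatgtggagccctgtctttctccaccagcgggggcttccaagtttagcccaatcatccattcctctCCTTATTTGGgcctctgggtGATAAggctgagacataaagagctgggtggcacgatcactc
Nppa, plus strand, chr4:148000592-148000721: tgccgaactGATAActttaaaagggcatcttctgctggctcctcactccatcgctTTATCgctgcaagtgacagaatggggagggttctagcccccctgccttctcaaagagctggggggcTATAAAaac
Actc1, minus strand, chr2:114052876-114053005: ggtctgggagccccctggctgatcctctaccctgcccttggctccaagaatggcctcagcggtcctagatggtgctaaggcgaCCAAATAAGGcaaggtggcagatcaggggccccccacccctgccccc

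The 10 genes had 14 full windows, since some have several annotated starts. A CArG box was found in 2 of the 14, GATAA in 4 (28.6%) and TATAAA in 3. Of all 32851 windows in the table, 1.63% held a CArG box, 25.4% GATAA and 8.32% TATAAA. Myl7 had the CArG box at position -61 and GATAA at -41, counted from the annotated start at 1. Nppa had GATAA matches at -121 and -75 and TATAAA at -9, and Actc1 had a CArG box at -47. The counts also hold matches after the start, with TATAAA in Actc1 at 34 and in Myh6 at 2, and GATAA in Tnni3 at 19 and 26. These are letter matches, and no binding was measured.

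Of the atrial genes, all 3 members were high in normal lung relative to the tumors. Myl7, the atrial regulatory light chain, was at 0.366 and 0.115 FPKM in OE tumors 1 and 3 and listed at 0 in OE tumor 2, at 174 and 326 FPKM in OE normal lungs 1 and 2, and at 171 and 269 FPKM in WT lungs 1 and 2. Myl4, the atrial essential light chain, was at 1.10, 0.720 and 1.04 FPKM in the OE tumors, at 121 and 306 FPKM in OE normal lung, and at 133 and 222 in WT lung. Both light chains were at or near 1 FPKM or less in every tumor and at 121 FPKM or more in every normal lung, with no overlap. Nppa was at 0.0921, 0.0539 and 0.181 FPKM in the OE tumors, at 24.8 and 106 FPKM in OE normal lung, and at 2.84 and 5.39 in WT lung. Its 3 groups did not overlap, and the OE normal lungs stood highest. How many of all genes also had no overlap between the 2 kinds of normal lung was not counted. With 2 against 2 libraries the smallest exact permutation p is 0.333, so this order alone decides nothing.

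The thin filament genes followed the light chains. Cardiac alpha-actin Actc1, the main actin of heart sarcomeres, was at 0.369, 0.1003 and 0.406 FPKM in the OE tumors, at 112 and 269 FPKM in OE normal lung, and at 175 and 349 in WT lung. Cardiac troponin T (Tnnt2), which anchors the calcium switch to tropomyosin, was at 0.595, 0.512 and 0.986 FPKM in the OE tumors, at 94.0 and 258 FPKM in OE normal lung, and at 112 and 184 in WT lung. Its inhibitory partner Tnni3 was at 0.742, 1.66 and 3.21 FPKM in the OE tumors, at 71.6 and 160.3 FPKM in OE normal lung, and at 67.9 and 111 in WT lung. For these 3 genes every tumor lay below every normal lung, and the 2 kinds of normal lung overlapped.

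The motor genes parted from each other. Myh6, the alpha myosin heavy chain that dominates adult mouse heart, was at 0.292, 1.54 and 1.83 FPKM in the OE tumors, at 77.6 and 172 FPKM in OE normal lung, and at 70.0 and 122 in WT lung. Myh7, the beta chain of slow and fetal muscle, was at 1.79, 38.2 and 41.6 FPKM in OE tumors 1 to 3, at 11.9 and 16.5 FPKM in OE normal lung, and at 15.5 and 14.7 in WT lung. Thus OE tumor 1 was below all normal lungs for Myh7, and OE tumors 2 and 3 were above all of them. OE tumor 1 also differed from OE tumors 2 and 3 in sex-linked genes, with the Y-linked Eif2s3y at 30.7 FPKM against 0.0327 and 0.0295 FPKM. OE normal lung 2, with Xist at 63.6 FPKM, had Myh7 at 16.5 FPKM, and a fit with sex as a covariate is given below. Myh6 and Myh7 are close paralogs and neighbors on chromosome 14. In GENCODE M21 transcripts 22.2% of the 50-base windows of Myh7 also occurred in Myh6, so reads from one could be credited to the other.

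Oxygen storage and calcium release completed the set. Myoglobin (Mb), the oxygen store of red muscle, was listed at 0 in OE tumor 1 and at 0.0664 and 0.119 FPKM in OE tumors 2 and 3, at 63.7 and 170.0 FPKM in OE normal lung, and at 47.4 and 96.4 in WT lung. Ryr2, the channel that releases calcium from the sarcoplasmic reticulum, was at 0.160, 0.695 and 0.679 FPKM in the OE tumors, at 2.69 and 6.40 FPKM in OE normal lung, and at 2.62 and 3.79 in WT lung. Both genes were lower in every tumor than in every normal lung.

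**Figure D1:**
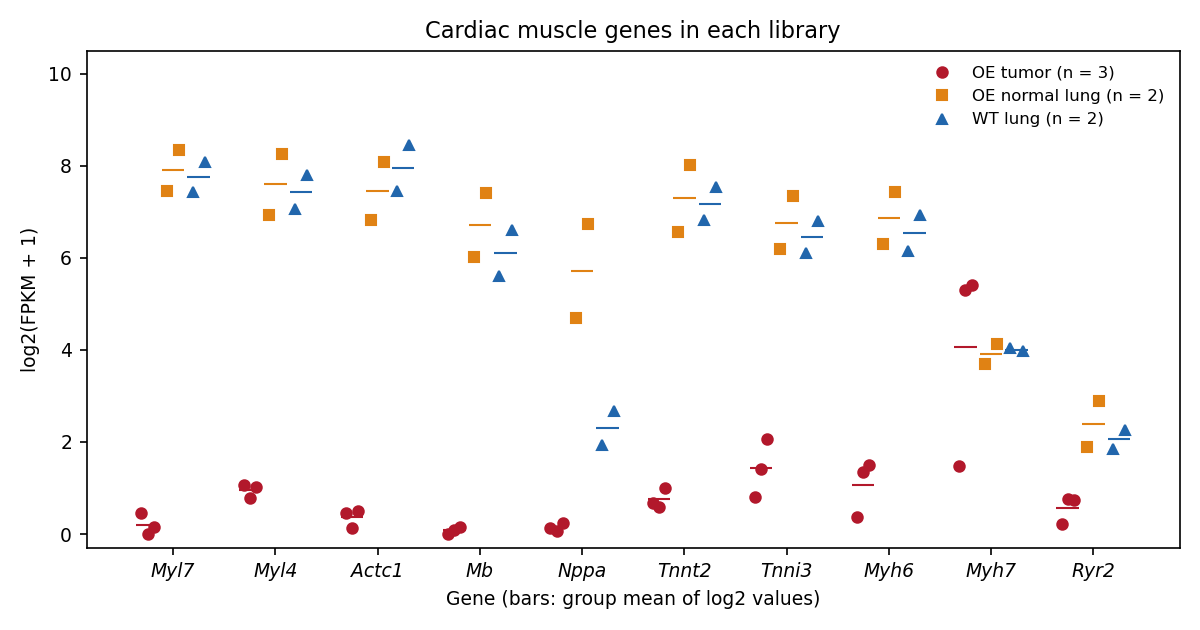
Each point is 1 library, as log2(FPKM + 1), for OE tumors (circles, n = 3), OE normal lung (squares, n = 2) and WT lung (triangles, n = 2), with a bar at the group mean of the log2 values. Tumors sit below all normal lungs for 9 of 10 genes, while Myh7 has 1 tumor below and 2 above the normal lungs.

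Groups were compared with limma on log2(FPKM + 1) over 14057 genes, with adjusted p under 0.05 as the threshold. On this scale a difference understates the change of low genes. Of the 10 genes, 9 were lower and 0 higher in OE tumors than in OE normal lung, where 24.9% of all genes tested were lower and 13.1% higher. The same numbers, 9 lower and 0 higher, were found in OE tumors against WT lung, where 23.2% of all genes were lower and 15.0% higher, and both comparisons use the same tumors. In 9 of 10 genes all 3 tumors lay below all 4 normal lungs, where 30.0% of genes tested had groups that did not overlap in this direction. All 10 genes passed the expression minimum of 1 FPKM in 2 libraries, but only 4 reached 1 FPKM in any tumor. The others passed through the normal lungs alone, so their counts and p-values against the tumors describe the set without adding support. In bulk tissue, fewer muscle cells and less RNA per cell cannot be told apart.

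Myl7 stood lowest of the 10 when tumors were set against OE normal lung (-7.70 in log2, SE 0.33, limma adjusted p = 0.000219). Its difference was -7.55 (SE 0.33, limma adjusted p = 0.000150) from WT lung. Actc1 had the largest against WT lung (-7.59, SE 0.44, limma adjusted p = 0.000232), beside -7.09 (SE 0.44) against OE normal lung. For Myl7 an exact permutation test of tumors against all 4 normal lungs (2-sided) gave p = 0.0571, the smallest it can give. Myl7 and Actc1 did not reach 1 FPKM in any tumor and were singled out by these differences, so their p-values add no support. The differences of Myl4, Mb, Tnnt2, Tnni3 and Myh6 from OE normal lung were -6.64 (SE 0.41), -6.63 (SE 0.46), -6.54 (SE 0.44), -5.33 (SE 0.49) and -5.79 (SE 0.49). By group means Actc1 was 653-fold higher in OE normal lung than in the tumors, Myl4 224-fold and Tnni3 62.0-fold, and without OE normal lung 2 the ratios were 384, 127 and 38.3. For WT lung over the tumors they were 897, 186 and 47.7, and without WT lung 2 598, 139 and 36.3. Without OE tumor 3 the Tnni3 ratios were 96.7 in OE normal lung and 74.4 in WT lung. The tumor values under these ratios, most of them near or under 1 FPKM, stand for few reads.

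Nppa and Ryr2 gave the calls that depended on single libraries. Nppa fell by 5.57 against OE normal lung (SE 0.58, limma adjusted p = 0.00103) and by 2.16 against WT lung (SE 0.58, limma adjusted p = 0.0296). The second of these was lost without OE tumor 2, OE tumor 3, WT lung 1 or WT lung 2 (limma adjusted p = 0.0769, 0.0709, 0.0791 and 0.173), and over all alternatives the adjusted p ranged between 0.00385 and 0.173. Ryr2 fell by 1.81 (SE 0.34, limma adjusted p = 0.00872) against OE normal lung and by 1.48 (SE 0.34, limma adjusted p = 0.0182) against WT lung, the second being lost without either WT lung (limma adjusted p = 0.0616 and 0.122) and under quantile normalization (0.0797).

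Myh7 did not pass in either comparison, with a log2 difference of 0.16 (SE 1.17, limma adjusted p = 0.927) from OE normal lung and 0.06 (SE 1.17, limma adjusted p = 0.974) from WT lung. Without OE tumor 1 it was higher in tumors by 1.45 (SE 0.16, limma adjusted p = 0.000760) and 1.35 (SE 0.16, limma adjusted p = 0.000981). Calls rose over all genes in these fits. Of 14057 genes, 3755 and 3991 were called higher without OE tumor 1, against 1844 and 2115 with it. The Myh7 calls are therefore not particular to this gene. With sex as a covariate the differences were -0.24 (SE 0.75, limma adjusted p = 0.814) and -1.54 (SE 0.89, limma adjusted p = 0.2496), sex having been read from Xist after the data were seen. In OE tumors 1 to 3 Myh7 stood at 6.14, 24.7 and 22.7 times the level of Myh6 per length, and at 0.0957 to 0.221 times in the 4 normal lungs.

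**Figure D2:**
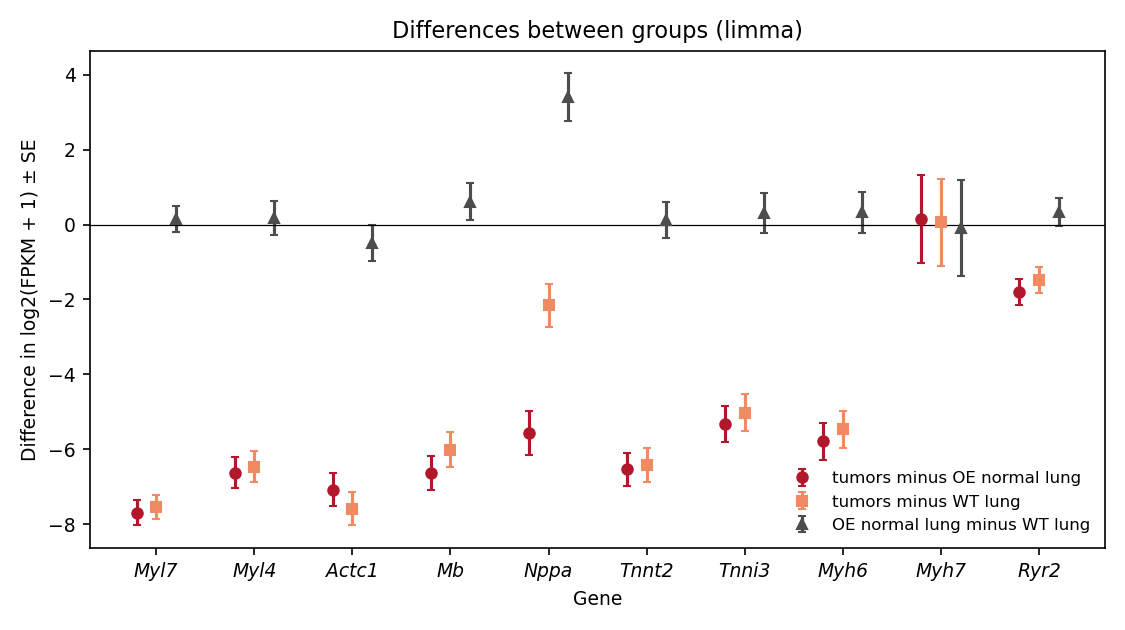
Differences in log2(FPKM + 1) with their SE from limma for each gene, for tumors minus OE normal lung, tumors minus WT lung and OE normal minus WT lung. Myl7 is lowest in tumors against OE normal lung at -7.70, Myh7 lies near 0 with an SE of 1.17, and Nppa stands alone at 3.41 between the 2 kinds of normal lung.

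The summed atrial light chains exceeded the summed ventricular light chains in each normal lung. The summed level of Myl7 and Myl4 was 102 and 37.4 times that of Myl2 and Myl3 in OE normal lungs 1 and 2, and 92.6 and 18.0 times in WT lungs 1 and 2. The mean log2 ratio was 5.65 ± 1.18 (SD, n = 4), above 0 in 4 of 4 lungs, and an exact sign-flip permutation test over lungs (2-sided) gave p = 0.13, the smallest it can give. Nearly all of the ventricular sum was Myl3, at 2.79 and 16.7 FPKM in OE normal lung, and at 3.28 and 27.3 in WT lung, a light chain that slow skeletal muscle also uses. Myl2, the ventricular regulatory light chain, was at 0.111 and 0.143 FPKM in OE normal lung, listed at 0 in WT lung 1 and at 0.0480 FPKM in WT lung 2. Irx4, a transcription factor of ventricular muscle, was at 0.0273 FPKM at most. Myh7, also on the ventricular list, was at 11.9 and 16.5 FPKM in OE normal lung, and at 15.5 and 14.7 in WT lung. Not every atrial gene exceeded every ventricular gene. Nppa in both WT lungs and Mybphl in WT lung 2 were below Myl3. Nppa in both WT lungs, and Mybphl in OE normal lung 1 and WT lung 1, were below Myh7. Myl3 varied 9.79-fold among the normal lungs, while Myl7 varied 1.91-fold, so the range of the ratio came mostly from Myl3.

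Of the other atrial genes on the list, Sln and Mybphl were high in the same lungs and Bmp10 was not. Sln, encoding sarcolipin, an inhibitor of the calcium pump in atrial muscle, was listed at 0 in OE tumors 1 and 2 and at 0.0698 FPKM in OE tumor 3, at 56.7 and 138 FPKM in OE normal lung, and at 55.5 and 76.0 in WT lung. Mybphl, a myosin-binding protein of atrial muscle, was at 0.0272 FPKM in OE tumor 1 and listed at 0 in OE tumors 2 and 3, at 11.7 and 23.8 FPKM in OE normal lung, and at 13.4 and 20.4 in WT lung. Bmp10, a growth factor of the right atrium in mouse, was listed at 0 in all 7 libraries. Muscle of the veins and attached atrial tissue cannot be told apart from these values.

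Between the heavy chains, Myh6 was 6.55 and 10.4 times Myh7 in OE normal lungs 1 and 2, and 4.53 and 8.31 times in WT lungs 1 and 2. The mean log2 ratio was 2.83 ± 0.52 (SD, n = 4), with exact sign-flip permutation p = 0.13, again the smallest possible. This ratio moved with Myh6, since Myh7 ranged over 1.39-fold among the normal lungs and Myh6 over 2.47-fold.

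**Figure D3:**
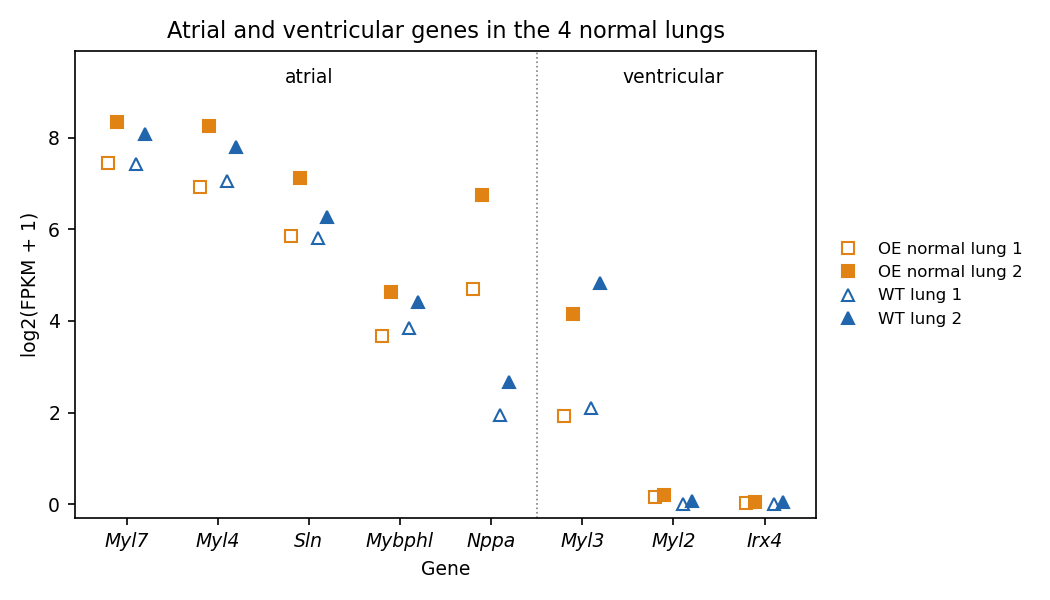
Levels as log2(FPKM + 1) of 5 atrial and 3 ventricular genes in OE normal lungs (squares) and WT lungs (triangles). Open symbols mark library 1 and filled symbols library 2, and Myh7, also on the ventricular list, is not drawn. Myl7 and Myl4 are highest, and Myl2 and Irx4 lie at or near 0. Nppa is higher in both OE normal lungs than in both WT lungs, a difference that was not called (limma adjusted p = 0.209).

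Most heart genes were high or low together from lung to lung. OE normal lung 2 exceeded OE normal lung 1 by 1.87-fold to 2.75-fold in the 8 genes other than Nppa and Myh7, and WT lung 2 exceeded WT lung 1 by 1.45-fold to 2.03-fold. Over all genes tested the median of these ratios was 1.01 and 0.990. The SD of log2 FPKM over the 4 normal lungs had a median of 0.62 across the 10 genes, against 0.15 across 9612 genes with a mean of at least 5 FPKM. The 95th percentile over those 9612 genes was 0.67, above the median of the 10. The 9 members with such a mean had a median of 0.63. The median of all 10 was 0.45 without OE normal lung 2. That lung was the highest of the 4 in 9 of the 10 genes, and it was also the only normal lung with high Xist, at 63.6 FPKM against 0.816 FPKM in OE normal lung 1 and 0.131 and 0.346 FPKM in the WT lungs. The part of sex in the spread was not tested.

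After subtraction of the mean offset of the other members, that is, of those 8 genes less the gene itself, the SD of Myl4 was 0.05, against 0.63 before it. Tnni3 and Myh6 kept an SD of 0.09 and 0.10, Tnnt2 of 0.12, and Myl7 and Ryr2 of 0.17 each. Mb and Actc1 kept more, at 0.31 and 0.48. Actc1 was highest in WT lung 2 where most others were highest in OE normal lung 2, at 0.644 and 0.828 times Myl7 in the OE normal lungs and 1.02 and 1.30 times in the WT lungs. Myh7 did not follow this pattern, with an SD of 0.21 before and 0.50 after the subtraction.

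Endothelial, fat, smooth muscle, mesothelial and erythroid genes had other orders among the lungs than the heart genes. The summed level of 8 endothelial genes was 1102 and 995 FPKM in OE normal lungs 1 and 2 and 1167 and 1273 FPKM in WT lungs 1 and 2. The sum of 6 fat genes was 97.1 and 34.1 FPKM in OE normal lung, and 17.2 and 19.7 in WT lung, highest in OE normal lung 1. The sum of 8 smooth muscle genes was 309.7 and 349.9 FPKM in OE normal lung, and 462 and 660 in WT lung. It was higher in the WT lungs, and higher in library 2 of each group, as the heart genes were. The sum of 14 skeletal muscle genes was also higher in library 2, at 16.0 and 22.5 FPKM in OE normal lung, and 17.6 and 28.0 in WT lung. The sum of 5 mesothelial genes was 106 and 58.0 FPKM in OE normal lungs 1 and 2 and 109.8 and 59.0 FPKM in WT lungs 1 and 2, so it was lower in library 2 of each group, where the heart genes were higher. The sum of 4 erythroid genes was 4458 and 3235 FPKM in OE normal lung, with 2359 and 2092 FPKM found in WT lung. The part of these tissues in the spread was not tested.

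**Figure D4:**
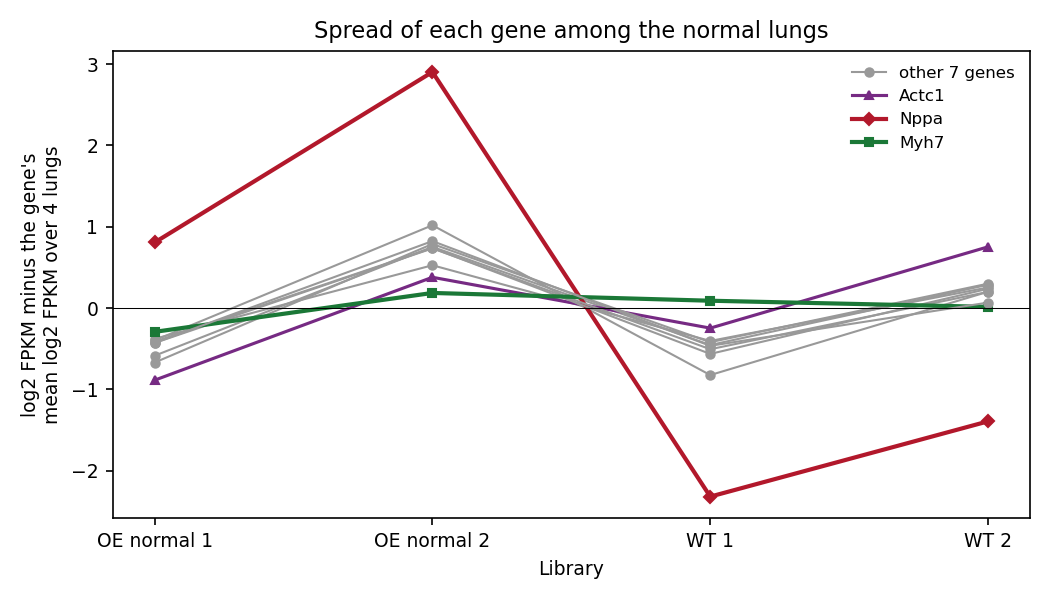
Each line is 1 gene, as its log2 FPKM minus its own mean over the 4 normal lungs. The 7 genes in grey move together with OE normal lung 2 highest, Actc1 peaks in WT lung 2, Myh7 stays nearly flat, and Nppa spans 37.3-fold from the highest to the lowest lung.

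Between OE normal and WT lung, none of the 10 genes passed, as 0% of the genes tested did in either direction (limma, 0 of 14057, with 1208 at an unadjusted p under 0.05). Nppa had by far the largest difference of the 10, at 65.4 ± 57.4 FPKM in OE normal lung, and 4.12 ± 1.81 in WT lung (SD, n = 2 each), a 15.9-fold ratio of means that was 6.02-fold without OE normal lung 2 and 25.7-fold without OE normal lung 1. Its log2 difference was 3.41 (SE 0.64, limma adjusted p = 0.209), and over the alternatives the adjusted p ranged between 0.0720 and 0.913, so it was never called. With a library left out the log2 difference ranged between 2.38 and 4.43, and with sex as a covariate, OE normal lung 2 being the only Xist-high normal lung, it was 2.96 (SE 0.59, limma adjusted p = 0.177). Set against the other atrial genes in the same library, Nppa stood at 0.142 and 0.325 times Myl7 in OE normal lungs 1 and 2 and at 0.0166 and 0.0200 times in WT lungs 1 and 2. The log2 ratio of Nppa to Myl7 differed by 3.56, with an exact permutation p = 0.333 (2-sided), the smallest that 2 against 2 libraries can give.

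None of the other genes tested that respond to load on heart muscle passed between the 2 kinds of normal lung. As 0 of all 14057 genes tested passed there, this does not set load genes apart. Nppb, the sister natriuretic peptide, was at 0.1254 and 2.44 FPKM in OE normal lung, listed at 0 in WT lung 1 and at 0.145 FPKM in WT lung 2, below the expression minimum. The stretch-responsive Ankrd1 was at 20.8 and 53.9 FPKM in OE normal lung, and at 32.2 and 54.8 in WT lung (log2 difference -0.31, SE 0.45, limma adjusted p = 1.00). For the remaining 9 of the 10 genes the log2 differences ran between -0.50 for Actc1 and 0.61 for Mb, and the data do not show that they were equal.

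The wider muscle program, read from lists of related genes, was lower in tumors as well. Of 13 further sarcomere genes tested, 12 were lower in OE tumors than in OE normal lung and 12 lower than in WT lung, with median log2 differences of -3.36 and -2.61 beside -0.11 and -0.06 over all genes. Over all genes 24.9% and 23.2% were lower. The titin cap protein Tcap was at 0.661, 0.159 and 0.306 FPKM in the OE tumors, 64.1 and 101 FPKM in OE normal lung, and 53.2 and 90.4 in WT lung. The exception was tropomyosin Tpm1, which smooth muscle and fibroblasts also express, at 629 FPKM in OE tumor 1, 158 and 136 FPKM in OE tumors 2 and 3, 209 and 344 FPKM in OE normal lung, and 222 and 364 in WT lung.

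Of 12 further genes of calcium handling and excitation, 10 were lower in each of these comparisons and 0 higher, beside the 24.9% and 23.2% of all genes that were lower. The exceptions were the calcium channel Cacna1c, at -0.59 (SE 0.27) against OE normal lung, and the potassium channel Kcnq1, at -1.11 (SE 0.98). Atp2a2, the calcium pump of the sarcoplasmic reticulum, fell by 1.88 (SE 0.28) against OE normal lung, and its inhibitor Pln by 4.58 (SE 0.40). Of 8 further muscle energy genes, 7 were lower in each comparison, read against the same shares of all genes. Fabp3, a fatty acid carrier of heart, fell by 5.27 (SE 0.38) against OE normal lung. The exception was Cox6a2, a heart and skeletal muscle subunit of cytochrome oxidase, at 3.38 FPKM in OE tumor 1 and 63.4 and 74.4 FPKM in OE tumors 2 and 3, beside 29.7 and 58.7 FPKM in OE normal lung, and 28.7 and 43.5 in WT lung.

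Of 8 cardiac transcription regulators tested, 4 were lower and 1 higher against OE normal lung, and 3 lower and 1 higher against WT lung. These are few genes beside shares over all genes of 24.9% lower and 13.1% higher against OE normal lung, and 23.2% and 15.0% against WT lung. Tbx5, shared by heart and lung mesenchyme, fell by 1.75 (SE 0.21) against OE normal lung, and Mef2a differed by -0.43 (SE 0.15, limma adjusted p = 0.0627). The gene that rose was Gata6, also a regulator of lung epithelium, at 48.1, 23.5 and 21.6 FPKM in the OE tumors, 9.76 and 6.42 FPKM in OE normal lung, and 8.60 and 9.55 in WT lung. Nkx2-5, a heart regulator, was listed at 0 in the 3 OE tumors and was at 0.517 and 1.32 FPKM in OE normal lung, and 0.333 and 0.598 in WT lung.

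Among load-responsive genes, Xirp1, an actin-binding protein of striated muscle, was listed at 0 in the 3 OE tumors and was at 0.646 and 2.89 FPKM in OE normal lung, and 1.5004 and 3.40 in WT lung.

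Most endothelial, smooth muscle, mesothelial, erythroid and fat markers tested were also lower in tumors, beside 24.9% of all genes against OE normal lung and 23.2% against WT lung. In OE tumors against OE normal lung 8 of 8 endothelial genes, 7 of 8 smooth muscle genes, 4 of 4 mesothelial genes and 3 of 3 erythroid genes tested were lower, and the same counts were found against WT lung. Of fat genes 4 of 4 tested were lower against OE normal lung and 3 of 4 against WT lung, and of skeletal muscle genes 3 of 7 and 4 of 7. The endothelial sum was 106 to 129 FPKM in the OE tumors and 995 to 1273 FPKM in the normal lungs. The sum of the 10 heart genes, most of it Myh7 in OE tumors 2 and 3, was 5.52 to 50.2 FPKM in the OE tumors and 753 to 1791 FPKM in the normal lungs. Acta2, a smooth muscle actin, was at 313 FPKM in OE tumor 1 while Actc1 was at 0.369 FPKM there, and Actc1 and Acta2 share no 50-base window of transcript. Of 14 skeletal muscle genes 7 stayed under 1 FPKM in all libraries. The sum of the 14 was 5.05 to 6.69 FPKM in the OE tumors and 16.0 to 28.0 FPKM in the normal lungs. In the normal lungs it was led by the light chain Myl1, which embryonic heart also expresses. Myl1 did not lead it in OE tumors 1 to 3, where Myl1 was at 0.141, 0.0214 and 0.222 FPKM. The highest genes of each list differed from OE normal lung by -5.55 (SE 0.25) for Cldn5, -2.54 (SE 0.21) for Egfl7, -1.48 (SE 0.34) for Tagln and -0.53 (SE 1.00) for Acta2 among vessel genes. They differed by -5.49 (SE 0.50) for Hbb-b2, -5.13 (SE 0.49) for Hba-a1, -5.04 (SE 0.55) for Cfd, -2.95 (SE 0.33) for Cidec, -4.23 (SE 0.35) for Gpm6a, -3.56 (SE 0.75) for Msln, -3.03 (SE 0.44) for Myl1 and -1.71 (SE 0.23) for Tnnt3 among blood, fat, mesothelial and skeletal genes. Sums of 5 thymus genes reached 1.73 FPKM and of 5 cartilage genes 0.825 FPKM at most. The part of these tissues in the fall of the heart genes was not tested.

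The genes whose 7-library profile lay nearest to the mean profile of the 10 members were also muscle genes. By root-mean-square distance of centered log2(FPKM + 1) values, they were Csrp3 (0.258), Cox8b (0.262), Tnnc1 (0.267), Myoz2 (0.394), Ckmt2 (0.430) and Pln (0.434), where the median over 9653 candidate genes was 2.52. Csrp3, a Z-disc protein, was listed at 0 in OE tumors 1 and 2 and at 0.0328 FPKM in OE tumor 3, and was at 26.3 and 61.6 FPKM in OE normal lung, and 23.7 and 51.1 in WT lung. Tnnc1, cardiac troponin C, was at 0.401, 0.201 and 0.406 FPKM in the OE tumors, 27.1 and 76.1 FPKM in OE normal lung, and 27.5 and 56.3 in WT lung. Among the members themselves Tnni3 (0.182) and Myh6 (0.328) lay nearest to the mean and Myh7 (2.77) farthest.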

How the data were processed

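RNA sequencing covered 7 mouse lung libraries (3 OE tumor, 2 OE normal, 2 WT). The authors deposited 1 FPKM value per gene symbol and library; TopHat2, TopHat, Cufflinks 2.0.0 and mm9 are named, per the submitters' processing notes. The sources used here do not state annotation, strand setting or read totals. Of 22474 rows, 27 with a date in place of a symbol were left out. As strand is unknown, reads of genes overlapping Myl4, Mb, Myh6 and Myh7 could be credited to them.

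The fit used log2(FPKM + 1) as it stands, on 14057 genes reaching 1 FPKM in 2 or more libraries. It was made in limma 3.58.1 under R 4.3.3 (3 groups, mean-variance trend, 2-sided, Benjamini-Hochberg over all genes). The same fit was also run on data simulated with gene means and variances taken from these libraries, with results not given here. SEs of log2 differences had medians of 0.19 (tumors against either normal group) and 0.21 (between normal groups). Members and lists were chosen with earlier results of these data known. Named genes were the members, the 2 non-members highest in normal lung in each list tested, list exceptions and the 6 nearest profiles; Nppb, Bmp10, Irx4, Nkx2-5, Eif2s3y and Mir208b were named after their values were seen. Ratios, exact tests and figures used Python 3.11.15, scipy 1.17.1 and matplotlib 3.10.9. Alternatives were other pseudocounts, filters, scalings, fits, a replicate block, a sex covariate and leaving out each library. Hbb-b1 was not found under that symbol.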

Additional observations from a re-analysis of the deposited data

How the results depend on the processing

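The number of the 10 genes called lay between 8 and 10 for tumors against OE normal lung, between 7 and 10 for tumors against WT lung and at 0 for OE normal against WT lung under all 17 alternatives. Ryr2 had no value under the filter at 5 FPKM. Over all genes, limma called 5350 genes for tumors against OE normal lung and 5371 against WT lung. With the replicate number as a block it called 3130 and 2999, and with 1 library left out 2996 to 9620 and 2445 to 9438, the highest without OE tumor 1 and the lowest without OE normal lung 2 (3155 without OE normal lung 1) and WT lung 2 (2734 without WT lung 1). For OE normal against WT lung it called 0, with 2 without a filter, 3 in a fit of these groups alone, 1 with a pseudocount of 0.1, 1 with the replicate block, 1 with sex as a covariate (added after the data were seen) and 0 to 290 with a library left out, 290 without OE tumor 1. The share of calls that were higher in tumors than in OE normal lung was 34.5% for the deposited values, and under median-of-ratios scaling, TPM rescaling and quantile normalization 44.6%, 18.2% and 53.7%, with all-gene medians of -0.11, 0.05, -0.33 and 0.11 in that order, and for WT lung it was 39.4%, 45.0%, 30.8% and 52.8%.

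The Myh7 difference from OE normal lung, 0.16, was -0.52 with the replicate block, -0.12 after rescaling to TPM, -0.24 with sex as a covariate and -0.52 to 1.45 with a library left out. From WT lung it was -0.067 with a pseudocount of 0.1, -0.62 with the block, -0.10 after rescaling to TPM, -1.54 with sex and -0.62 to 1.35 with a library left out. Ryr2 against WT lung gave -1.08 under quantile normalization (limma adjusted p = 0.0797). Between OE normal and WT lung the signs of uncalled members turned. With sex as a covariate Myl4, Tnnt2, Tnni3, Myh6 and Ryr2 gave -0.070, -0.23, -0.21, -0.22 and -0.043, and Myh7 gave 0.028 after rescaling to TPM. With a library left out, Myl7 ranged over -0.30 to 0.60, Myl4 over -0.50 to 0.83, Actc1 over -1.13 to 0.12, Mb over -0.086 to 1.32, Tnnt2 over -0.61 to 0.84, Tnni3 over -0.27 to 0.88, Myh6 over -0.25 to 0.89, Myh7 over -0.32 to 0.13 and Ryr2 over -0.18 to 0.83. The cause was not tested. The light chain log2 ratio stayed between 5.23 and 6.14 and the heavy chain ratio between 2.65 and 3.05 under their 6 alternatives.

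Replicate numbers share nothing in the labels beyond the number, and libraries of the same number did not deviate together, with r of the difference between libraries 1 and 2 across genes of -0.03, 0.03 and -0.01 for the pairs of groups. The block moved no member across the threshold. Depth limits values under 1 FPKM in the tumors.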

Other observations

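Mir208b, a microRNA gene within an intron of Myh7, was listed at 425 FPKM in OE normal lung 2 and at 0 in the other 6 libraries, including OE tumors 2 and 3, where Myh7 was at 38.2 and 41.6 FPKM. FPKM is scaled to transcript length, so in a short gene a high value can stand for few reads. How many reads lie behind this value is not known, and it rests on 1 library. Cox6a2 and Myh7, from separate lists, had the same order among the tumors, with OE tumor 1 lowest and OE tumors 2 and 3 close together. They were set side by side after their values were seen. OE tumor 1 was also lowest for Ezh2 and Myh6, and highest for Tpm1, Acta2 and Gata6. How many of all genes had this order was not counted, so a link between Cox6a2 and Myh7 was not tested.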
